A study of Mus musculus with 19 samples.

Results

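The 8 genes described here encode transcription factors that macrophages, and Kupffer cells (KCs) among them, are known to use: Nr1h3, Rxra, Pparg, Irf8, Spi1, Maf, Cebpb and Tfec. They were taken as a list of named genes, drawn up with earlier results of these data known, and all 8 of the 8 listed genes had a probeset that maps to that single gene, out of 19938 genes measured in this way. Each of the 8 had exactly 1 such probeset. KCs were sorted from perfused and digested mouse livers as CD45+ Ly6C- Ly6G- SiglecF- F4/80+ Clec4F+ CD11bint cells, and RNA of each of 19 samples was hybridised to 1 Affymetrix Mouse Gene 1.0 ST array. The values are log2 levels after Robust Multi-array Average (RMA), so a difference of 1 is a 2-fold change, and levels are compared between samples and never between genes, because probes differ in brightness.

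Monocyte-derived KCs (mo-KCs) came from KC-DTR mice given 50 ng diphtheria toxin (DT) 30 days before the sort (n = 5) or 15 days before it (n = 3). The KC-DTR allele places the human DT receptor and YFP behind Clec4f, a lectin gene active in KCs, so that DT removes the resident KCs and monocytes refill the liver. Embryonic KCs (em-KCs, n = 11) came from WT mice (n = 3), untreated KC-DTR mice (n = 3), 1 untreated littermate without the allele, and littermates without the allele sorted 15 days (n = 2) or 30 days (n = 2) after DT. Mice were on a C57Bl/6 background and were 6 to 12 weeks old, and the labels call the samples of a group biological replicates. Whether all cells of the mo-KC sorts descended from monocytes was not measured on the arrays, and the sorted marker Clec4F is the protein of the targeted gene.

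Macrophage identity is set by general myeloid factors together with factors that answer signals of the tissue. PU.1 (Spi1) opens chromatin at macrophage genes with partners such as IRF8 and the C/EBP proteins, while in the liver the oxysterol receptor LXR-alpha (Nr1h3) binds DNA as a heterodimer with RXR-alpha (Rxra) and drives genes of cholesterol handling. The arrays allow a comparison of the mRNA levels of these regulators, not of the activity of the proteins.

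The KC markers were high in all groups. Compared with em-KCs, limma called 5 of 15 lower in day 30 mo-KCs (Timd4, Clec4f, C6, Hmox1 and Marco) and 3 of 15 lower in day 15 mo-KCs. From day 15 to day 30 mo-KCs it called 1 of 15 higher and 0 lower. The mean log2 level of the 15 markers lay between 11.14 and 11.48 in day 30 mo-KCs, between 11.17 and 11.34 in day 15 mo-KCs and between 11.74 and 11.87 in em-KCs. Some features of the arrays touch several results. Y-linked genes split the arrays into a set of 13 with high levels and a set of 6 with low levels, namely day 30 mo-KC replicates 3 to 5 and the 3 WT em-KC arrays. Xist, a noncoding RNA of the inactive X in females, ran the other way, averaging 9.30 ± 0.24 in day 30 replicates 3 to 5, against 4.15 ± 0.07 in replicates 1 and 2 (SD, n = 3 and 2). Neither the sex of each mouse nor an array batch is named for single samples in the sources used here. The mean of 14 immediate-early genes, which cells switch on within minutes of stress or tissue digestion, lay between 7.78 and 8.33 in day 30 replicates 3 to 5, at 9.77 and 10.08 in replicates 1 and 2, and between 9.64 and 10.10 at day 15. It lay between 7.83 and 8.04 in WT em-KCs and between 9.22 and 10.04 in the other em-KCs. The mean of 17 hepatocyte markers was 9.83 ± 0.02 (SD, n = 3) in WT em-KCs against 8.19 ± 0.30 (SD, n = 8) in em-KCs of the KC-DTR colony. In bulk RNA, fewer cells of a type and less RNA per cell cannot be told apart.

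None of the 8 factors passed the threshold, an adjusted p under 0.05, between mo-KCs and em-KCs. At day 30, limma called 0 of 8 members and 157 of 19938 genes (0.787%), and at day 15 it called 0 of 8 members and 100 genes (0.502%). With both days averaged, 0 of 8 members and 237 genes were called (1.19%), and between day 30 and day 15 mo-KCs 0 of 8 members and 4 genes were called (0.0201%). Without adjustment, the limma p fell under 0.05 for 2 members at day 30 (Pparg and Tfec), for 1 at day 15 (Cebpb), for 0 with both days averaged and for 2 between the days (Pparg and Cebpb). In the same order, 13%, 6.05%, 10.6% and 5.08% of all genes had an unadjusted limma p under 0.05. The day 30 and day 15 comparisons share the same 11 em-KC arrays.

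A missed threshold does not show that levels were alike, so the width of the intervals was read as well. At day 30 the 95% confidence interval of the difference lay within 1.5-fold for 7 of 8 members, Pparg being the exception, and for 91.1% of all genes. At day 15 it did so for 6 of 8 members, the exceptions being Pparg and Cebpb, and for 87.8% of all genes. With both days averaged all 8 members lay within 1.5-fold, as did 94.3% of all genes. On the log2 scale the members had a median difference of -0.10 at day 30 and of -0.03 at day 15, against -0.02 and -0.01 over all genes.

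**Figure D1:**
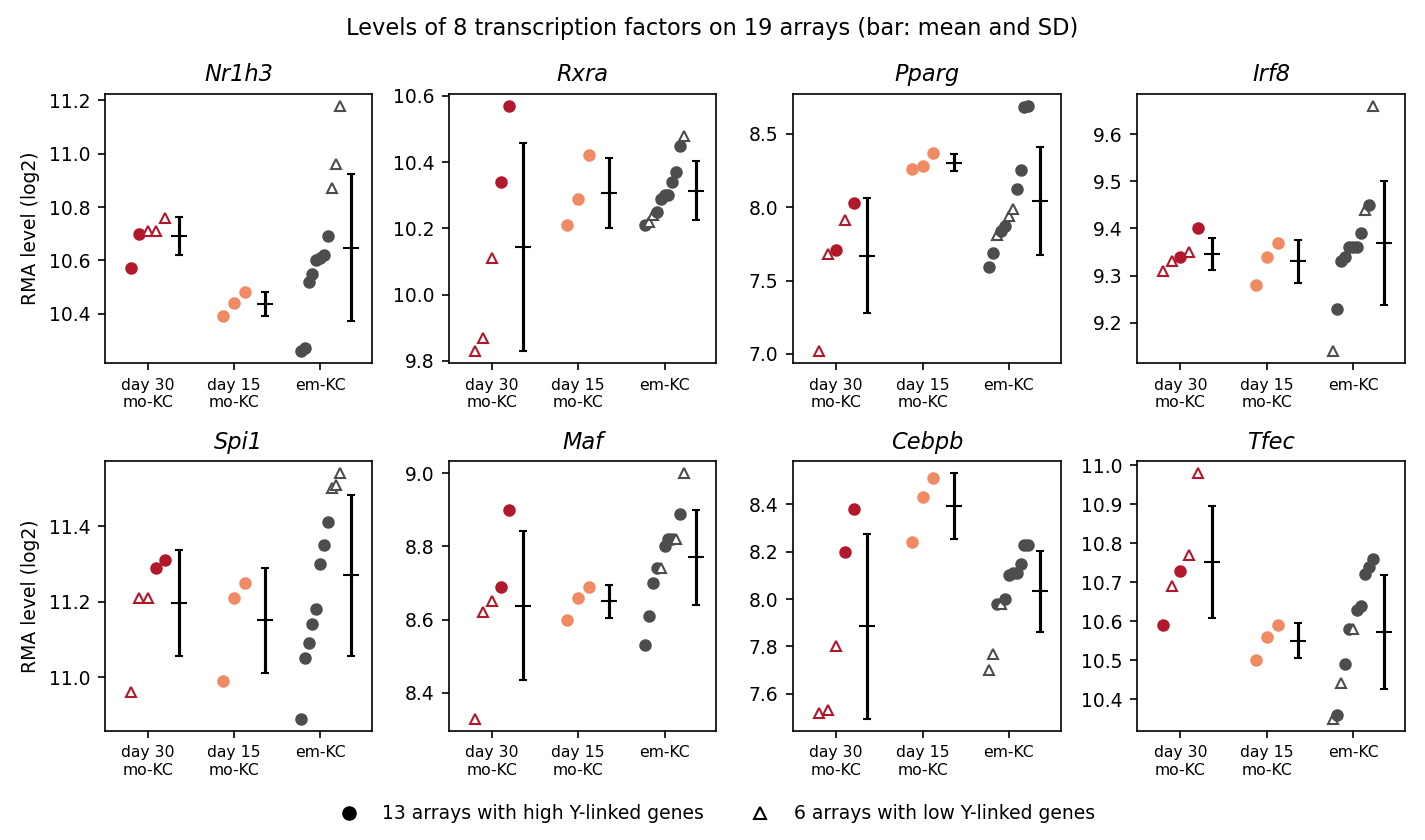
Log2 RMA level (y axis, a separate range for each gene) of the 8 factors on each array, by group (x axis), with filled circles for the 13 arrays high in Y-linked genes, open triangles for the 6 low ones, and a bar for the mean and SD. Each mo-KC group overlaps with em-KCs for every factor except Cebpb at day 15, where the 3 arrays at 8.24 to 8.51 stand above the em-KC range of 7.70 to 8.23. The share of all genes that separate in this way is not given here.

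**Figure D2:**
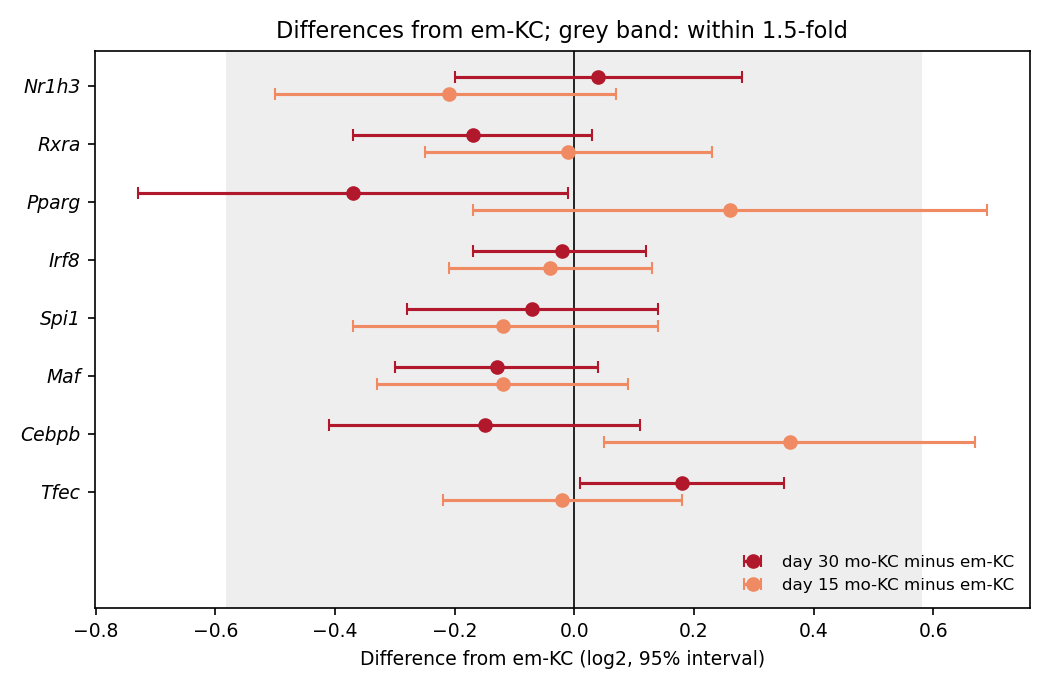
Difference from em-KCs in log2 units (x axis) with its 95% confidence interval for each factor (y axis), day 30 mo-KCs in red and day 15 mo-KCs in orange, over a grey band that marks changes within 1.5-fold. Only the intervals of Pparg on both days and of Cebpb at day 15 leave the band.

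The nuclear receptors come first. Nr1h3, the gene of LXR-alpha, read 10.57, 10.70, 10.71, 10.76 and 10.71 in the 5 day 30 mo-KC arrays. It read 10.39, 10.44 and 10.48 in day 15 mo-KCs, and em-KCs ran from 10.26 through a median of 10.61 to 11.18. All mo-KC arrays of both days lay within the em-KC range, and every day 30 array lay above every day 15 array. The share of all genes whose day 30 and day 15 arrays separate is not given here. All day 15 arrays lie in the set of 13 and day 30 replicates 3 to 5 in the set of 6, so the days also differ in set. The difference from em-KCs was 0.04 at day 30 with a standard error of 0.11 (limma adjusted p = 0.914) and -0.21 at day 15 with a standard error of 0.14 (limma adjusted p = 0.92). Between day 30 and day 15 mo-KCs it was 0.26, with a 95% interval of -0.07 to 0.58.

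Rxra, the gene of the heterodimer partner of LXR, PPAR and other receptors, was divided inside the day 30 group. Replicates 1 and 2 read 10.34 and 10.57, while replicates 3, 4 and 5 read 9.83, 10.11 and 9.87. Day 15 mo-KCs read 10.42, 10.29 and 10.21, and em-KCs ran from 10.21 through 10.30 to 10.48. Thus 3 day 30 arrays lay below all em-KC arrays, 1 lay above them and 1 lay within their range. The day 30 difference was -0.17 (standard error 0.10, adjusted p = 0.478 from limma), and the day 15 difference was -0.01 (adjusted p = 0.998).

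Pparg, the gene of the lipid-sensing receptor PPAR-gamma that alveolar macrophages and fat cells depend on, was the most variable member in em-KCs, with an SD of 0.37 over 11 arrays. In day 30 mo-KCs it read 8.03, 7.71, 7.68, 7.91 and 7.02. Day 15 mo-KCs read 8.28, 8.37 and 8.26, and em-KCs ran from 7.59 through 7.94 to 8.69. All 5 day 30 arrays lay below all 3 day 15 arrays, replicate 5 lay below every em-KC array, and the other 4 lay within the em-KC range. As for Nr1h3, the share of all genes whose 2 days separate is not given here, and the days also differ in set. The day 30 difference from em-KCs was -0.37 with a 95% interval of -0.73 to -0.01 (adjusted p = 0.365 from limma), and the difference between day 30 and day 15 mo-KCs was -0.63 with an interval of -1.12 to -0.15 (adjusted p = 0.92). These intervals reach changes of 1.66-fold and 2.17-fold, so changes of up to that size lie within what the arrays allow.

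Irf8 opens the general myeloid regulators. It encodes an interferon regulatory factor that partners PU.1 and is needed for monocyte and dendritic cell fates. It read 9.40, 9.34, 9.31, 9.35 and 9.33 in day 30 mo-KCs and 9.37, 9.28 and 9.34 in day 15 mo-KCs, and em-KCs ran from 9.14 through 9.36 to 9.66. All 8 mo-KC arrays lay inside the em-KC range, whose 2 ends were both WT arrays. The differences were -0.02 at day 30 (95% interval -0.17 to 0.12) and -0.04 at day 15 (-0.21 to 0.13), so that the intervals reach no further than 1.12-fold and 1.16-fold.

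Spi1, the gene of the ETS factor PU.1, read 11.29, 11.31, 11.21, 11.21 and 10.96 in day 30 mo-KCs. Day 15 mo-KCs read 10.99, 11.25 and 11.21, and em-KCs ran from 10.89 through 11.30 to 11.54. Every mo-KC array lay inside the em-KC range. The difference was -0.07 at day 30 with a standard error of 0.10 (limma adjusted p = 0.821) and -0.12 at day 15 with a standard error of 0.12 (limma adjusted p = 0.959).

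Maf encodes c-MAF, a basic leucine zipper factor that restrains the self-renewal of macrophages. It read 8.69, 8.90, 8.33, 8.65 and 8.62 in day 30 mo-KCs and 8.69, 8.66 and 8.60 in day 15 mo-KCs, and em-KCs ran from 8.53 through 8.80 to 9.0. Only day 30 replicate 3 lay outside the em-KC range, below it. The differences, -0.13 at day 30 and -0.12 at day 15, were nearly equal, with limma adjusted p-values of 0.538 and 0.948, and with both days averaged the 95% interval was -0.28 to 0.03.

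Tfec, a macrophage-restricted member of the MiT family of helix-loop-helix factors, read 10.73, 10.59, 10.69, 10.77 and 10.98 in day 30 mo-KCs. It read 10.59, 10.56 and 10.50 in day 15 mo-KCs, and em-KCs ran from 10.35 through 10.58 to 10.76. Replicates 4 and 5 of day 30 lay above all em-KC arrays and the other mo-KC arrays lay within their range. The day 30 difference was 0.18 with a 95% interval of 0.01 to 0.35 (adjusted p = 0.347 from limma), which is 1.13-fold, and the day 15 difference was -0.02 (adjusted p = 0.988).

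Cebpb, the gene of C/EBP-beta, a factor of inflammatory genes and of non-classical monocytes, was spread widely over the mo-KC arrays. It read 8.38, 8.20, 7.80, 7.53 and 7.52 in day 30 mo-KCs, with an SD of 0.39 (n = 5). Day 15 mo-KCs read 8.51, 8.43 and 8.24, and em-KCs ran from 7.70 through 8.10 to 8.23. All 3 day 15 arrays lay above every em-KC array, while the day 30 arrays lay on both sides of the em-KC range. The share of all genes whose day 15 arrays separate from em-KCs is not given here. The difference from em-KCs was -0.15 at day 30 with a standard error of 0.12 (limma adjusted p = 0.661) and 0.36 at day 15 (standard error 0.15, 95% interval 0.05 to 0.67, adjusted p = 0.688 from limma). Between day 30 and day 15 mo-KCs the difference was -0.51 with a 95% interval of -0.86 to -0.16, the member difference with the smallest unadjusted limma p between the days (0.00634), and its adjusted p was 0.92. All day 15 arrays belong to the set of 13, and within that set, which holds day 30 replicates 1 and 2, the difference between the days was -0.10 (adjusted p = 0.999 from limma).

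Cebpb levels ran with the immediate-early genes over the arrays. Replicates 3 to 5 of day 30 had 7.80, 7.53 and 7.52 for Cebpb with immediate-early means of 8.33, 8.17 and 7.78, whereas replicates 1 and 2 had 8.38 and 8.20 with means of 10.08 and 9.77. WT em-KCs had 7.77, 7.98 and 7.70, with immediate-early means of 7.83, 7.97 and 8.04. The arrays thus form separate clusters in the immediate-early mean, and within the 13 arrays high in Y-linked genes Pearson's r between Cebpb and that mean was 0.55. With the immediate-early mean as a covariate the day 15 difference of Cebpb was 0.18 (adjusted p = 0.945 from limma), against 0.36 without it, and no immediate-early gene of the 14 was called at either day. That mean separates the 2 Y-linked sets without overlap, so the covariate cannot be fully told apart from the set. Within the set of 13, Cebpb averaged 8.39 ± 0.14 in day 15 mo-KCs and 8.11 ± 0.09 in colony em-KCs (SD, n = 3 and 8).

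**Figure D3:**
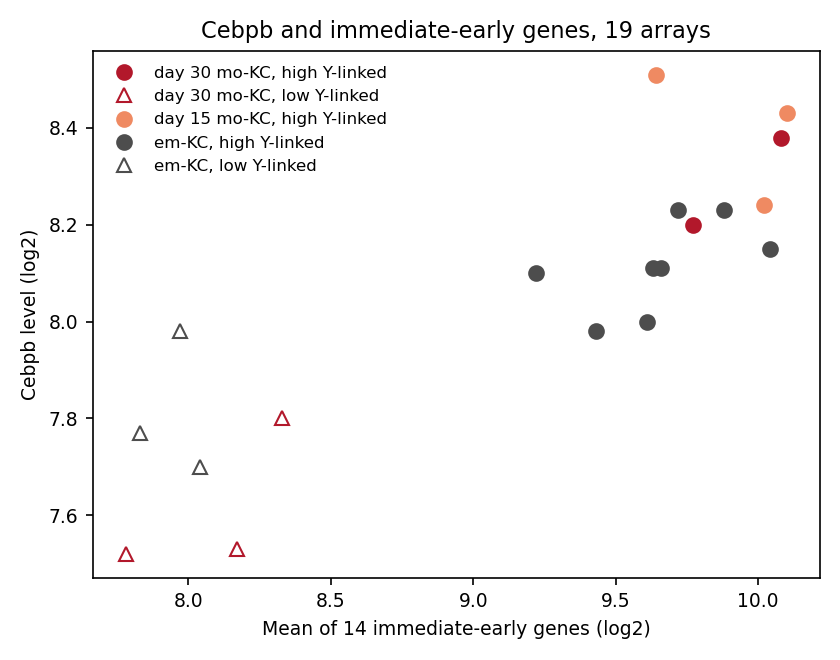
Log2 level of Cebpb (y axis) against the mean log2 level of 14 immediate-early genes (x axis) on 19 arrays, coloured by group, with open triangles for the 6 arrays low in Y-linked genes. Those 6 arrays sit at the lower left with means of 7.78 to 8.33, and the 3 day 15 arrays sit at the upper right with Cebpb between 8.24 and 8.51.

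Of all genes, those whose pattern over the 19 arrays was most like that of Cebpb were Nr4a1 (r = 0.94, rho = 0.96), Dusp1 (r = 0.92, rho = 0.96) and Il1b (r = 0.91, rho = 0.91). Over the 13 arrays high in Y-linked genes their r was 0.71, 0.77 and 0.72. Nr4a1 is an orphan nuclear receptor induced early by many stimuli, Dusp1 a phosphatase that turns off MAP kinases, and Il1b a cytokine of inflammation. Because Cebpb and its closest companions include early-response genes, the 250 bases before their starts are shown, with the letters TGACG, the core of sites that CREB and ATF factors bind, in capitals on either strand (CGTCA where it lies on the other strand). RefSeq tables of the build GRCm38.p6 gave a window for 6 of the 8 members and for all 3 companions, and the motif was chosen after the letters were seen.
Cebpb, chr2:167688665-167688914, plus strand: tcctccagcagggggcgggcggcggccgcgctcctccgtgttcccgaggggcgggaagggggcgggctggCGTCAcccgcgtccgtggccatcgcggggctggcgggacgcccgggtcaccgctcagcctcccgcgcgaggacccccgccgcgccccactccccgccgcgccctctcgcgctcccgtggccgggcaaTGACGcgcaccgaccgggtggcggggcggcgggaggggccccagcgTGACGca
Nr4a1, chr15:101266596-101266845, plus strand: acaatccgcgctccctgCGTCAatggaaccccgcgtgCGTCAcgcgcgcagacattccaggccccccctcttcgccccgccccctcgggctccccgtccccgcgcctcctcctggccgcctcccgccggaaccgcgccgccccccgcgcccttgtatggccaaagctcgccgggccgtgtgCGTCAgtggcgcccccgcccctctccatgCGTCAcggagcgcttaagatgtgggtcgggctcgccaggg
Dusp1, chr17:26508473-26508722, minus strand: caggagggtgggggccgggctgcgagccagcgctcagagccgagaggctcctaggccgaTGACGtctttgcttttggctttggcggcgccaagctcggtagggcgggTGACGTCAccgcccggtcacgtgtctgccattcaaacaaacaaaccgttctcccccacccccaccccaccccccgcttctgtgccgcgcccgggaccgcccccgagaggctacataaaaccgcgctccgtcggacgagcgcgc

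The window of Cebpb held 3 matches to TGACG, that of Nr4a1 held 4 and that of Dusp1 held 3, of which 2 overlap within a single TGACGTCA. Of 32851 windows of the same length, 17.8% held at least 1 match, 0.688% at least 3 and 0.137% at least 4. These shares cover windows of any base content. Because the motif was chosen from the letters shown, they are no test of it. The windows of Nr1h3, Rxra, Pparg, Irf8 and Tfec, and that of Il1b, held no match, and a match is a description of the letters only.

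The closest companions of the other members, again by Pearson's r over 19 arrays, had r between 0.77 and 0.90. Nr1h3 ran with Tmem86a (r = 0.90, and 0.84 over the 13 arrays), Htra3 and Pdlim2, and Rxra with Trio, Setd1a and Ifnar1, the gene of an interferon receptor chain (r = 0.87 for all 3, and 0.50 to 0.60 over the 13 arrays). Pparg ran with Epha1 (r = 0.87), Susd6 and Plek, and Irf8 with Atpaf2 (r = 0.86), Zfp362 and Ranbp10. Spi1 ran with Ptms (r = 0.88, and 0.92 over the 13 arrays), with Pfn1, the gene of an actin-binding profilin, and with Gfra3. Maf ran with Rpp25, Olfr138 and Mir31, whose mean levels of 2.72 to 4.78 were among the dim values of the arrays, and Tfec with Rnf138, 4930524J08Rik and Acnat1 (r = 0.80 to 0.81). All arrays share a normalization, and these values are descriptions over 19 points. Among all pairs of members, Nr1h3 and Spi1 (r = 0.65) and Rxra and Maf (r = 0.64) had the highest r, and Spi1 and Tfec had the lowest (r = -0.66). After the mean of each condition was removed, r was -0.36 for Nr1h3 and Spi1, 0.69 for Rxra and Maf, and -0.78 for Spi1 and Tfec.

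The arrays of day 30 fall in both Y-linked sets, so the day 30 difference was taken within each. In the set of 13, with day 30 replicates 1 and 2 against the 8 arrays of colony em-KCs, the differences of the members ran from -0.22 for Pparg to 0.17 for Cebpb. In the set of 6, with day 30 replicates 3 to 5 against 3 WT em-KC arrays, they ran from -0.39 for Spi1 to 0.36 for Tfec. No member was called in either set, and the sign differed between the sets for 6 of the 8 members (all but Pparg and Tfec). Some of these differences were small, such as 0.02 for Irf8 and 0.06 for Maf in the set of 13. The share of all genes with such a change of sign is not given here. A single fit of the difference between the sets called Rxra, at -0.52 (standard error 0.14, 95% interval -0.82 to -0.22, adjusted p = 0.0395 from limma), beside 942 of all genes (4.72%). For Rxra the day 30 difference was -0.38 in the set of 6 and 0.14 in the set of 13.

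The call on Rxra was lost (adjusted p from 0.0506 to 0.227) when any of 11 of the 19 arrays was left out, the highest p being that without day 30 replicate 2, and when arrays were centred on their median (-0.47, adjusted p = 0.0673). Spi1 had the same difference between the sets, -0.52, with an adjusted p of 0.0856 from limma, and Maf, Nr1h3 and Cebpb had -0.38, -0.39 and -0.38 (adjusted p = 0.183, 0.183 and 0.165). Within the day 30 group the 2 sets also differed in hepatocyte markers, whose mean was 8.56 ± 0.47 (SD, n = 3) in replicates 3 to 5 and 7.38 ± 0.01 (SD, n = 2) in replicates 1 and 2, and the part of these RNAs in the difference was not tested.

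WT em-KCs differed from the other em-KCs in many genes, so the members are read beside the share of all genes. Compared with em-KCs of the KC-DTR colony, untreated or treated, limma called 2 of 8 members in a fit of all 7 conditions, beside 3571 of 19938 genes (17.9%). Nr1h3 read 11.18, 10.96 and 10.87 in WT em-KCs, all above the highest of the 8 colony arrays at 10.69, and the difference was 0.49 (standard error 0.09, adjusted p = 0.00115 from limma). Spi1 read 11.51, 11.50 and 11.54 in WT em-KCs, against 10.89 to 11.41 in the colony, a difference of 0.34 (standard error 0.10, adjusted p = 0.0201 from limma). The other 6 members differed by -0.30 (Cebpb) to 0.12 (Maf) with limma adjusted p-values of 0.191 and above. In a fit by Y-linked set, which holds the same contrast with a different estimate of the spread, Cebpb was called as well (adjusted p = 0.0207 from limma).

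All 3 WT arrays lie in the set low in Y-linked genes and all 8 colony arrays in the other, so that origin of the mice, their sex and array batch cannot be told apart here. Xist read 8.72 to 9.21 in WT em-KCs and 4.11 to 4.53 in the colony. Hepatocyte RNA, stellate cell markers and the immediate-early genes moved along with the 2 calls: in WT em-KCs limma called 15 of 17 hepatocyte markers and 5 of 9 stellate cell markers, all higher, and 11 of 14 immediate-early genes, all lower. Alb, the albumin gene, read 12.41 to 12.56 in WT em-KCs and 9.76 to 11.38 in the colony. With the hepatocyte mean as a covariate, the Nr1h3 difference was 0.38 (adjusted p = 0.249 from limma) and that of Spi1 0.51 (adjusted p = 0.151). With the immediate-early mean as a covariate they were 0.38 (adjusted p = 0.113) and 0.55 (adjusted p = 0.0286). Both means separated WT from colony em-KCs without overlap. The hepatocyte mean lay at 9.82 to 9.85 against 7.78 to 8.75, and the immediate-early mean at 7.83 to 8.04 against 9.22 to 10.04. A call lost with either covariate therefore cannot tell the covariate from the contrast, and the part of these RNAs was not tested. The call on Nr1h3 held without each of the 11 em-KC arrays in turn, and that on Spi1 was lost without WT replicate 1, 2 or 3 (adjusted p = 0.0549, 0.051 and 0.0674).

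By condition, WT em-KCs had the highest mean of Nr1h3, Irf8, Spi1 and Maf and the lowest of Cebpb and Tfec. For Nr1h3 the order was WT em-KCs with 10.87 to 11.18 (n = 3), then day 30 mo-KCs at 10.69 ± 0.07 (SD, n = 5), littermate em-KCs 15 days after DT at 10.65, the untreated littermate at 10.62, littermates 30 days after DT at 10.58, day 15 mo-KCs at 10.43 ± 0.05 (SD, n = 3), and then untreated KC-DTR em-KCs at 10.35 ± 0.14 (SD, n = 3). Only the step between day 30 mo-KCs and WT em-KCs was called among the 6 neighbours in that order (-0.31, adjusted p = 0.0321 from limma). Of 21 pairs of conditions, adjusted over genes within each pair and not over pairs, 4 were called for Nr1h3 and 3 for Spi1, each with WT em-KCs as 1 side, and 0 for each of the other 6 members. No neighbours in the order of Rxra, Pparg, Irf8, Spi1, Maf, Cebpb or Tfec differed by that test, with the lowest neighbour adjusted p at 0.557, for Pparg.

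**Figure D4:**
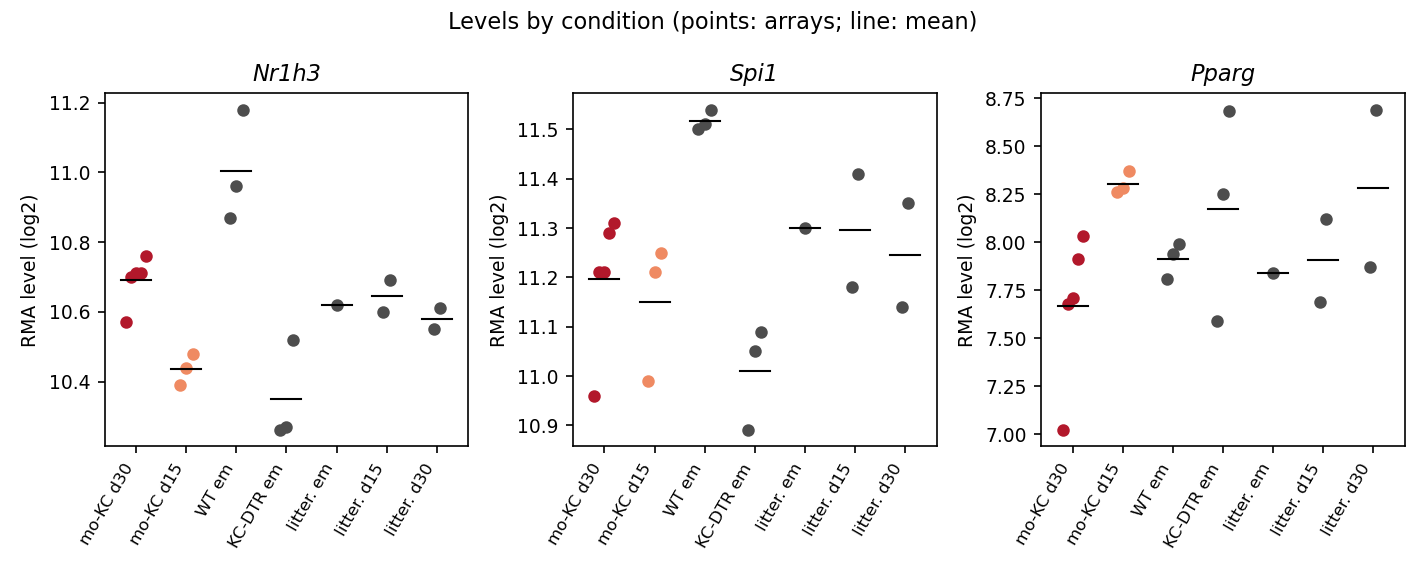
Log2 RMA level (y axis, a separate range for each gene) of Nr1h3, Spi1 and Pparg in the 7 conditions (x axis; litter., littermates without the KC-DTR allele; d15 and d30, days after DT), with points for arrays and lines for means. WT em-KCs hold the highest Nr1h3 and Spi1 levels, 10.87 to 11.18 and 11.50 to 11.54, and untreated KC-DTR em-KCs the lowest means, 10.35 and 11.01.

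The allele itself was examined among em-KCs of the colony. Nr1h3 read 10.52, 10.26 and 10.27 in untreated KC-DTR em-KCs, against 10.55 to 10.69 in the 5 littermate arrays, so the groups did not overlap, and the difference was -0.27 (95% interval -0.46 to -0.07, adjusted p = 1 from limma). Spi1 read 10.89, 11.09 and 11.05 in KC-DTR em-KCs, against 11.14 to 11.41 in littermates, again with no overlap and a difference of -0.27 (-0.48 to -0.05, adjusted p = 1). Limma called 0 of 8 members and 0 genes in all (0%), with 3.86% of all genes and 2 of 8 members under an unadjusted p of 0.05. The share of all genes whose groups did not overlap is not given here, so the absence of overlap has no background to be read against. Treatment and allele are not crossed here, since 4 of the 5 littermates had received DT and the KC-DTR em-KCs had not.

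Measured against those 3 untreated KC-DTR em-KC arrays, which carry the same allele as mo-KCs, in the fit of all 7 conditions, 0 of 8 members were called at day 30 (73 genes, 0.366%) and 0 of 8 at day 15 (78 genes, 0.391%). Nr1h3 was the member with the smallest p at day 30, with a difference of 0.34 (95% interval 0.14 to 0.54, adjusted p = 0.185 from limma), and all 5 day 30 arrays lay above the 3 KC-DTR arrays. The share of all genes whose arrays separate from those 3 is not given here. Pparg differed by -0.50 at day 30 with an interval from -1.0 to 0.00 (adjusted p = 0.533). At day 15 the largest member difference was that of Cebpb, 0.30 (-0.08 to 0.69, adjusted p = 1), with 0 members and 5.12% of all genes under an unadjusted limma p of 0.05.

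Time after DT alone was measured in littermates, whose em-KCs lack the receptor. Between 30 and 15 days after DT, 0 of 8 members and 0 genes were called in littermates (0%), with 1.87% of genes and 0 members under an unadjusted limma p of 0.05, and 7 of the 8 member differences lay between -0.09 and 0.04 while Pparg differed by 0.38. The change between the days in KC-DTR mice minus that in littermates was called for 0 of 8 members and 1 gene (0.00502%). For Pparg this difference of changes was -1.01 (95% interval -1.86 to -0.17) and for Cebpb -0.51 (-1.10 to 0.08), both with an adjusted p of 1 from limma and with 2 littermates per day. All littermate and day 15 arrays lie in the set of 13, whereas 3 of the 5 day 30 mo-KC arrays do not. Within that set the change between the days in mo-KCs was -0.43 for Pparg and -0.10 for Cebpb.

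The families to which the members belong were read as a whole. Of 90 factors listed in 7 groups (nuclear receptors, IRF, ETS, MAF, C/EBP and MiT families, and other macrophage factors), 85 were measured. In day 30 mo-KCs 1 of 85 was called, against 0.787% of all genes, and in day 15 mo-KCs 0 of 85. The median difference of the 85 was -0.05 at day 30 and 0.01 at day 15, and the interval lay within 1.5-fold for 75 and 73 of them. By family at day 30, the median was -0.09 for 20 nuclear receptors, -0.03 for 8 IRFs, -0.05 for 16 ETS factors, -0.05 for 6 MAF factors, -0.01 for 6 C/EBP factors and -0.01 for 4 MiT factors.

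The called factor was Spic, a relative of PU.1 that splenic red pulp macrophages need for iron recycling. It read 10.29, 10.13, 9.94, 10.03 and 9.80 in day 30 mo-KCs and 10.49, 10.32 and 10.44 in day 15 mo-KCs, and em-KCs ran from 10.19 through 10.55 to 10.98. It was lower than in em-KCs by 0.54 on the log2 scale at day 30, with a standard error of 0.11 (limma adjusted p = 0.013). Of the day 30 arrays, 4 of 5 lay below every em-KC array, whereas at day 15 the difference was -0.16 (adjusted p = 0.941). The call was lost without day 30 replicate 3 (adjusted p = 0.0603) or replicate 5 (adjusted p = 0.0684), and within the set of 13 arrays the difference was -0.37 (adjusted p = 0.621), against -0.65 (adjusted p = 0.0389) within the set of 6. It was also lost by the methods' t-test (adjusted p = 0.0679) and with the replicate number as a block (-0.45, limma adjusted p = 0.396). In that block fit day 30 replicates 4 and 5 do not enter the difference, because no other group has these numbers. Spi1, its relative, differed by -0.07 in the same comparison. In a fit whose only em-KCs were the 3 untreated KC-DTR arrays, Batf, an AP-1 factor, was called as well, at 0.90 at day 30 (adjusted p = 0.0104) and 0.85 at day 15 (adjusted p = 0.0245).

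**Figure D5:**
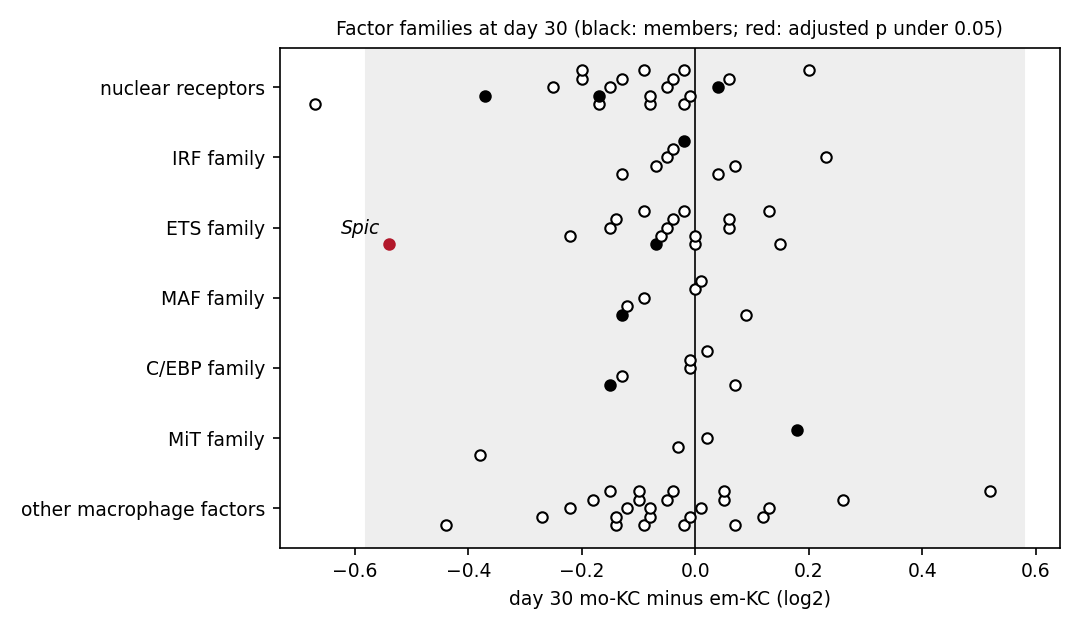
Difference between day 30 mo-KCs and em-KCs in log2 units (x axis) for 85 measured factors by family (y axis; vertical offsets within a row carry no value), with members in black, the factor with an adjusted limma p under 0.05 in red and all others open, over a grey band of 1.5-fold. Spic at -0.54 is the only called factor, and the members lie between -0.37 and 0.18.

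In WT em-KCs against colony em-KCs, 8 of the 85 factors were higher and 13 lower, beside 1550 and 2021 of all genes. C/EBP factors were lower for 4 of 6, while nuclear receptors were higher for 6 of 20, Nr1h3 among them. ETS factors included 1 higher, Spi1, and 3 lower, and IRF factors 1 higher. This comparison has the set and RNA differences described above for Nr1h3 and Spi1.

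Genes known to respond to the members were counted next, 61 measured of 66 listed. Compared with em-KCs, 3 of 61 were called lower and 0 higher in day 30 mo-KCs, and 1 lower and 1 higher in day 15 mo-KCs. Of all genes, 0.787% were called at day 30 and 0.502% at day 15. The median difference was -0.17 at day 30 and -0.05 at day 15, against -0.02 and -0.01 over all genes.

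Among 12 measured LXR targets, 2 were called lower in day 30 mo-KCs than in em-KCs, while Nr1h3 differed by 0.04 from all em-KCs together. Against WT em-KCs alone Nr1h3 differed by -0.31, and against untreated KC-DTR em-KCs by 0.34. Apoc1, an apolipoprotein gene, averaged 12.50 ± 0.09 in day 30 mo-KCs, 12.13 ± 0.04 in day 15 mo-KCs and 13.26 ± 0.08 in em-KCs (SD; n = 5, 3 and 11). Its log2 level was lower than in em-KCs by 0.76 at day 30 (limma adjusted p = 8.77e-08) and by 1.13 at day 15 (adjusted p = 2.45e-09). Neither mo-KC group overlapped with em-KCs. Lpcat3, a phospholipid-remodelling enzyme, was lower than in em-KCs by 0.44 at day 30 (adjusted p = 0.0274). It read 7.87 to 7.99 in replicates 3 to 5 and 8.43 to 8.44 in replicates 1 and 2, against 8.47 to 8.70 in em-KCs. Other LXR targets did not pass, among them, named after their values were seen, the cholesterol exporters Abca1 (-0.24, adjusted p = 0.286) and Abcg1 (-0.16, adjusted p = 0.43) and Apoe (0.02, adjusted p = 0.931).

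Targets of the other members gave 2 more calls. Of 8 C/EBP-beta targets, 1 was called higher in day 15 mo-KCs than in em-KCs, namely Ptgs2, the inducible prostaglandin synthase. Ptgs2 averaged 5.76 ± 0.28 in day 30 mo-KCs, 7.03 ± 0.09 in day 15 mo-KCs and 5.51 ± 0.21 in em-KCs (SD; n = 5, 3 and 11). The day 15 difference was 1.51 (adjusted p = 6.54e-07 from limma). Of 15 lysosomal targets of the MiT family, 1 was called lower in day 30 mo-KCs than in em-KCs. This was Ctsd, the protease cathepsin D, lower by 0.35 (limma adjusted p = 0.0157), while Tfec differed by 0.18. Ctsd read 12.14 to 12.29 in day 30 replicates 3 to 5, against 12.74 to 12.86 in WT em-KCs. In replicates 1 and 2 it read 12.42 to 12.57, against 12.57 to 12.72 in em-KCs of the KC-DTR colony. None of 9 PPAR-gamma targets and 11 targets of PU.1 and IRF8 was called at either day, and Fabp4 and Cd36 are named after their values were seen. Fabp4 differed by 0.57 (adjusted p = 0.228) and Cd36 differed by -0.34 (adjusted p = 0.365) at day 30.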

How the data were processed

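KCs were sorted and their RNA was amplified and hybridised to Affymetrix Mouse Gene 1.0 ST arrays. The authors deposited log2 values, background-corrected and quantile-normalized by RMA (version not given in the sources used here), for 35556 probesets on 19 arrays. Of these probesets 21789 had 1 gene symbol, 1621 had several and 12146 had none. The probeset with the highest mean was kept for each of 19938 genes. Differences were fitted with limma (version 3.58.1, R 4.3.3; lmFit and eBayes, two-sided), in 1 fit of 3 groups and, for the em-KC conditions, in 1 fit of 7 conditions, and p-values were adjusted over all genes by Benjamini-Hochberg with a threshold of 0.05. The scripts were tested on simulated data. Array medians lay between 5.72 and 5.81, and the number of arrays limits the precision. No pair of arrays among 171 was identical. The members and gene lists were chosen with earlier results of these data known. The text names the members in full, the called genes of the family and target lists, and the 3 genes most like each member. Alternatives covered normalization, filters, probesets, covariates, thresholds, blocks and left-out arrays. Some listed genes are not reported here.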

Additional observations from a re-analysis of the deposited data

Results flagged for a closer look

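Rxra was singled out because its day 30 difference was not the same in the 2 sets of arrays that Y-linked genes separate. The difference between mo-KCs and em-KCs was -0.38 in the set of 6 arrays and 0.14 in the set of 13, and the difference between these, -0.52, had an adjusted p of 0.0395 from limma. The same fit called 942 of all genes (4.72%), and Spi1 also differed by -0.52 (limma adjusted p = 0.0856). The call on Rxra was kept in 8 of 19 fits with 1 array left out, and lost with centred arrays (limma adjusted p = 0.0673). Rxra read 9.83, 10.11 and 9.87 in day 30 replicates 3 to 5, and 10.34 and 10.57 in replicates 1 and 2. The sets also differ in hepatocyte RNA and in immediate-early genes, and the part of either in the difference was not tested.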

How the results depend on the processing

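The count of members called, 0 at day 30, day 15, with both days averaged and between the days, stayed 0 under every alternative run, left-out arrays included. Over 40 differences of single members and 536 alternatives, no called difference changed sign, 40 moved by more than the spread, 6 lost their call and 36 that were never called changed sign. For the families at day 30 (1 called), the count was 2 in a fit whose only em-KCs were the untreated KC-DTR arrays, 0 by the methods' t-test, 2 once the array set was a block, 0 in the 13 arrays, 5 in the 6 arrays, 3 with the hepatocyte covariate, 0 at a threshold of 0.01 and 2 at 0.1. It ran from 0 to 3 with 1 array left out, 0 without day 30 replicate 3 or 5 and 3 without replicate 1. At day 15 (0 called) it was 1 in that fit. Members with an interval within 1.5-fold, counted after seeing the data, numbered 3 of 8 in the 6 arrays at day 30, against 7, and with 1 array left out their number was between 7 and 8 at day 30 and between 5 and 6 at day 15. Of the 2 members called in WT em-KCs, 0 were called with the hepatocyte covariate, 1 with the immediate-early covariate and 1 at a threshold of 0.01, and from 1 to 2 with 1 array left out. Both covariates separate WT from colony em-KCs without overlap. The difference between array sets, also added after seeing the data, called 0 members with centred arrays, against 1, and from 0 to 1 with 1 array left out. The cause of these shifts was not tested.

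Over all genes, the day 30 count of 157 was 63 in the fit whose only em-KCs were the untreated KC-DTR arrays (73 against the same arrays in the fit of 7 conditions), 84 by the methods' t-test, 65 in the 13 arrays, 827 in the 6 arrays, 514 once the array set was a block, 722 with the hepatocyte covariate and 259 with the immediate-early covariate. The day 15 count of 100 was 242 with array weights, 231 in the 13 arrays, 168 once the array set was a block, 151 with the immediate-early covariate, 66 by the methods' t-test and 64 in that fit with untreated KC-DTR em-KCs only (78 in the fit of 7 conditions).

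The replicate numbers of the labels showed no strong pairing of the samples. Over 36 pairs of samples with the same number the correlation of their deviations ran from -0.12 to 0.15, with 5 over 0.1. Pairs with different numbers are not given here, and pairing was not tested. With the replicate number as a block, 0 members were called at either day and 2 in WT em-KCs, 0 family factors were called at day 30, and 49 of all genes were called at day 30, against 157 without the block. Only day 30 mo-KCs have replicate numbers 4 and 5, so in the block fit the day 30 differences rest on replicates 1 to 3. The lower day 30 counts therefore cannot be told apart from the loss of these arrays and say nothing on pairing.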
